A study of Mus musculus and Rattus norvegicus with 30 samples.

Results

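Of the 6658 LncRNAs that the authors assembled in the rat dorsal root ganglion (DRG), 1200 (18.02%) carried at least 1 gap between exons that was also listed as a splice junction by the aligner. They are called junction-supported LncRNAs here. They were found from positions alone: a gap between consecutive exons of a LncRNA had to equal a listed junction in chromosome, start, end and strand. Of the others, 4303 had more than 1 exon but no such gap and 1155 had a single exon. The junctions came from the same libraries as the counts, so the level of a LncRNA is not independent of whether it was chosen, and levels are given below as descriptions.

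The RNA was the polyadenylated fraction of L5 DRG from male Wistar rats. In the spinal nerve transection (SNT) group, the left L5 spinal nerve had been ligated and transected while L4 and L6 were left intact. In the sham group, the nerve had been exposed and not ligated. Tissue was taken 21 days after surgery, the age of the rats is not given in the sources used here, and each group had 4 libraries of 3 pooled animals each. The labels do not say more about how the pools were formed, so the spread between libraries may be partly technical. The DRG is a mixed tissue, and in such bulk RNA fewer cells of a type and less RNA per cell cannot be told apart.

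LncRNAs are long transcripts that hold no recognised protein-coding frame. Many are transcribed, capped, spliced and polyadenylated like messenger RNAs, and some lie antisense to a gene or close to one. A read that crosses a junction is direct evidence that 2 stretches of genome were joined in 1 RNA molecule, provided that its alignment is right. A gap drawn from a drop in coverage is not, since the reads on either side may come from separate molecules. Splice-site bases were not read here, so junctions were taken as listed, and short matched gaps were not shown to be introns. In the DRG, axotomy is known to lower many ion channels and receptors of nociceptors and to raise regeneration-associated genes and certain neuropeptides.

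The 8 libraries held 11954612 to 17887909 counts, and 13690 of 39281 listed features were tested. On the first principal component of log2(CPM + 1), where CPM is the read count scaled to a common library size with TMM factors, sham 1 to 3 lay between 35.7 and 48.7, SNT 2 to 4 lay between -49.9 and -30.6, and sham 4 (6.33) and SNT 1 (-1.09) lay between the groups. The summed level of the listed injured-neuron markers was 611 to 691 CPM in sham 1 to 3, 1521 CPM in sham 4, 2010 CPM in SNT 1 and 2332 to 3060 CPM in SNT 2 to 4. Several defining markers of DRG cells were at 0 counts in all 8 libraries of the deposited table, among them Rbfox3, Tubb3, Uchl1, Nefh, Mbp and Fabp7, while the neuronal genes Prph, Scn9a, Scn10a and Calca were present. Of the 39281 listed features, 22245 had at least 1 count. Such zeros may be gaps in the table and are not read here as absent expression, which was not tested. Shares over all features therefore cover only the features that were counted and tested.

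Most junction-supported LncRNAs were short and simple in structure. Models with 2 exons made up 865 of the 1200, 185 had 3 exons, 34 had 4 and 116 had 5 or more, up to 40. The median exonic length was 860.5 bases, against 2000 bases for multi-exon LncRNAs without a matched gap and 453 bases for single-exon ones. The median number of exons was 2 against 5 in the unmatched multi-exon class. All gaps were matched in 1055 of the junction-supported LncRNAs, and the remaining 145 also held gaps without a junction. A single matched gap was present in 981, 2 in 175, 3 in 34, 4 in 8, 5 in 1 and 6 in 1.

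Matched gaps were longer than unmatched ones. The 1476 matched gaps had a median length of 1740.5 bases (21 to 136840), whereas the 36527 unmatched gaps had a median of 305 bases (1 to 314526). Gaps of 100 bases or fewer were 10.03% of the matched and 29.4% of the unmatched ones, and gaps of more than 10000 bases were 18.9% and 8.84%. Of the unmatched gaps, 36007 shared neither end with any listed junction. Of the 219118 listed junctions, 1476 (0.674%) were a gap of these LncRNAs. Only 137815 of the listed junctions lay on chromosomes that hold assembled LncRNAs, and the rest could not match. The list also held junctions outside the length limits that the study's methods state (20 to 100000 bases), from 1 base up, and 4 of the matched gaps were longer than 100000 bases.

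**Figure D1:**
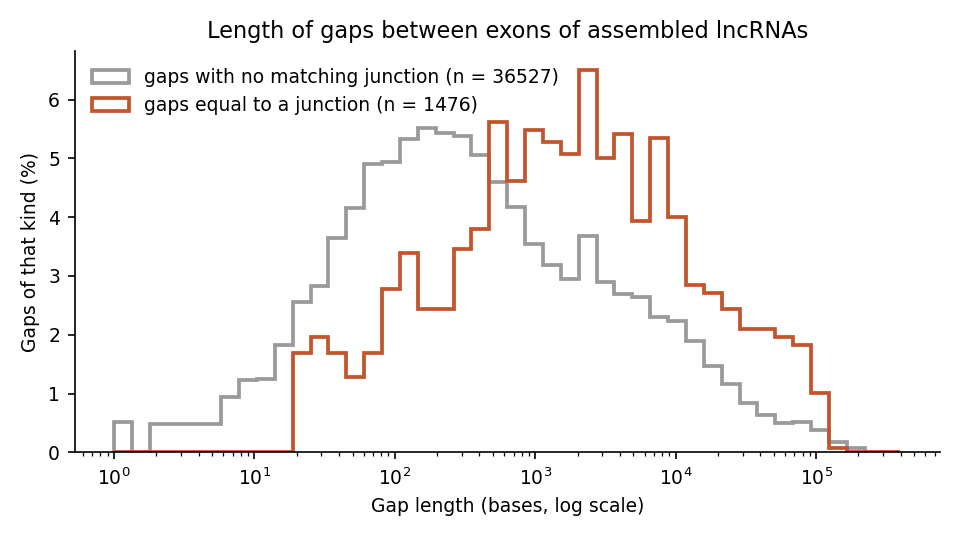
Length in bases (x axis, log scale) of gaps between consecutive exons of assembled LncRNAs, as a percentage of the gaps of each kind (y axis). The orange line is the 1476 gaps equal to a splice junction, with a median of 1740.5 bases, and the grey line the 36527 gaps with no equal junction, with a median of 305 bases.

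Chromosomes 1 to 9 and the X and Y held the junction-supported LncRNAs, as they held all assembled LncRNAs of the deposited annotation. They were 16.5% to 21.2% of the assembled LncRNAs on each of chromosomes 1 to 9, 8.62% on X (37 of 429) and 14.3% on Y (2 of 14). The plus strand held 633 and the minus strand 567. None overlapped another assembled LncRNA on its own strand, 156 lay across one on the opposite strand, and in 64 of these exons overlapped. The strand setting of the counting is not given in the sources used here, so reads of such opposite-strand pairs may not have been told apart.

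Levels were low and unequal. The mean over the 8 libraries had a median of 1.07 CPM, with 80% of the LncRNAs between 0.215 and 10.2 CPM. A mean of at least 1 CPM was reached by 615, at least 10 CPM by 125 and over 100 CPM by 7. At least 1 count in every library was found for 1015, and none was at 0 in all 8. The median of unmatched multi-exon LncRNAs was 0.660 CPM and that of single-exon LncRNAs 0.494 CPM. Per kilobase of exon, which is the scale on which LncRNAs of unequal length can be compared, the medians were 1.11, 0.438 and 1.0 in the same order, so the single-exon class came close to the junction-supported one.

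In sham 1 to 4, junction-supported LncRNAs took 0.886%, 0.712%, 0.818% and 0.666% of library counts, and in SNT 1 to 4 they took 0.634%, 0.608%, 0.646% and 0.627%. Every sham library was above every SNT library, with sham 4 the nearest to them. The mean was 0.771% ± 0.0997 (SD, n = 4) in sham and 0.629% ± 0.0159 (SD, n = 4) in SNT. Because LncRNA4785 alone took 11.5% to 19.5% of the counts on these LncRNAs, the share was also taken without it, and it was then 0.578% to 0.732% in sham and 0.510% to 0.543% in SNT. The unmatched multi-exon class did not separate the groups, with 2.38% to 3.41% in sham and 2.59% to 3.45% in SNT. As a share of the counts on assembled LncRNAs, the junction-supported ones took 15.9% to 20.4% in sham and 14.3% to 17.5% in SNT, and here the groups overlapped.

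**Figure D2:**
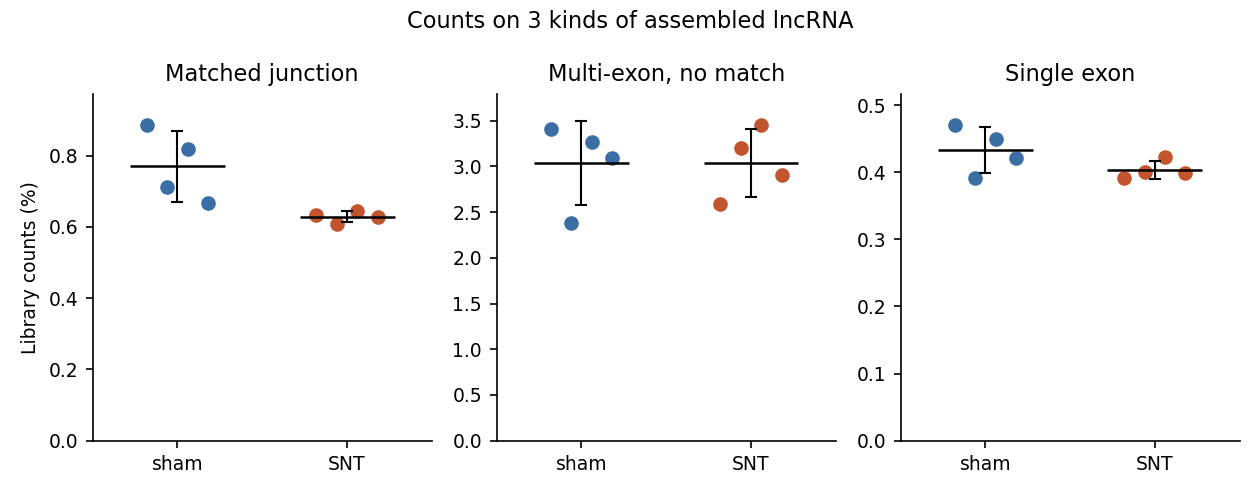
Percentage of library counts (y axis) on junction-supported LncRNAs (left), multi-exon LncRNAs without a matched junction (middle) and single-exon LncRNAs (right). Each point is 1 library (blue sham, orange SNT), the horizontal line is the group mean and the bar is 1 SD (n = 4). The 4 sham libraries lie between 0.666% and 0.886% on the left, above all SNT libraries, and each panel has its own scale from 0.

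The effect of SNT was then tested with edgeR's quasi-likelihood test over all features, and a feature is called where the Benjamini-Hochberg adjusted p-value is under 0.05. Of the 1200 junction-supported LncRNAs, 776 passed the filter on low counts, and the 424 that did not had means of 0.042 to 1.11 CPM. Among the 776, 46 were called higher and 172 lower after SNT, 218 in all. That is 28.1%, beside 27.4% called over all features tested, so the share called was close to the background. The balance of directions was not: 5.93% were called higher and 22.2% lower, beside 12.3% and 15.1% over all features. Among the other assembled LncRNAs tested, 15.4% were called, 2.58% higher and 12.8% lower. No test was made of these differences between classes.

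The median log2 fold change of SNT over sham (log2FC) of the tested junction-supported LncRNAs was -0.14 (quartiles -0.74 and 0.30), beside 0.00 over all features. Single-exon LncRNAs were close to them, with a median of -0.13 (quartiles -0.63 and 0.22), and unmatched multi-exon ones had 0.01. With RLE factors and with totals from annotated genes alone, the median of the junction-supported ones was -0.14 and -0.13. Called falls ranged from 0.46 to 4.40 on the log2 scale, with 120 of 172 over 1 and 46 over 2. Called rises ranged from 0.53 to 3.59, with 27 of 46 over 1 and 6 over 2. CPM did not overlap between the groups for 212 of the 776 tested, beside 26.5% over all features and 15.7% over the other assembled LncRNAs.

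These counts depended on single libraries. With sham 4 left out, 98 were called higher and 211 lower, while 34.6% of all features were called. Without SNT 1 they were 77 and 191, with 36.1% of all features. With both left out, 123 were higher and 222 lower of 800 tested, with 43.9% of all features. These 2 libraries were picked because they lay between the groups in these same data. That choice by itself favours more calls and larger changes, so the fit without both is no independent support, here or for single LncRNAs below. Leaving out sham 1, 2 or 3 gave 25, 24 and 18 higher and 112, 122 and 105 lower, and leaving out SNT 2, 3 or 4 gave 20, 28 and 23 higher and 97, 119 and 129 lower. Over all features those 6 fits called 10.6% (without sham 3) to 15.9% (without sham 2), so the counts moved together with the share called over all features. Falls outnumbered rises in every one of these fits.

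**Figure D3:**
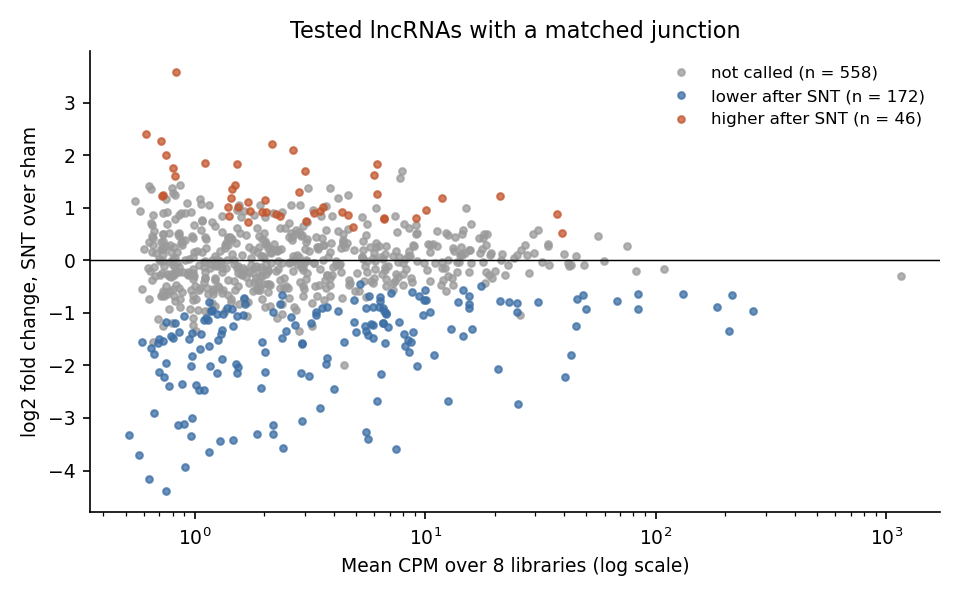
Log2 fold change of SNT over sham (y axis) against mean CPM over the 8 libraries (x axis, log scale) for the 776 tested junction-supported LncRNAs, 1 point each. Orange points are the 46 called higher, blue points the 172 called lower and grey points the 558 that were not called. Blue points run from the lowest levels tested up to LncRNA5961 at 265 CPM, and the point farthest to the right is LncRNA4785, which was not called.

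The share called was larger at higher levels. Of LncRNAs with a mean of at least 5 CPM, all 240 were tested and 86 (35.8%) were called, 75 of them lower. Between 1 and 5 CPM, 93 of 374 (24.9%) were called, 66 of them lower, and under 1 CPM, 39 of 162 (24.1%), 31 of them lower. At a mean of at least 5 CPM, 16.0% of 914 unmatched multi-exon LncRNAs and 25% of 132 single-exon LncRNAs were called. Annotated genes were at 32.8% of 8150 at that level and at 24.1% of 1602 between 1 and 5 CPM, near the junction-supported LncRNAs. Between 1 and 5 CPM, 14.6% of 919 unmatched multi-exon and 21.1% of 265 single-exon LncRNAs were called. Under 1 CPM the shares were 13.2% of 447 annotated genes, 9.64% of 363 unmatched multi-exon and 10.7% of 122 single-exon LncRNAs. At that level all 3 were below the junction-supported LncRNAs. Within the junction-supported class, 197 of 654 with every gap matched (30.1%) and 21 of 122 that also held unmatched gaps (17.2%) were called. The shares were 29.4% of 486 for models with 2 exons and 25.9% of 290 for those with 3 or more, and 27.6% of 579 with 1 matched gap and 29.4% of 197 with more. None of these differences was tested. By chromosome, the share called ran from 13.6% of 22 on X to 42.5% of 80 on chromosome 7, where 30 fell and 4 rose, leaving aside Y with 1 tested and 0 called. Shares over all features were not taken per chromosome, so whether these extremes are particular to junction-supported LncRNAs is not known.

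Among called LncRNAs whose groups did not overlap and whose mean reached 1 CPM, the largest falls were those of LncRNA404, LncRNA2454, LncRNA4365, LncRNA4453 and LncRNA1169. LncRNA404 (chromosome 1, 206087635 to 206116955, plus strand, rn6) is a 3-exon model of 1462 exonic bases in which both gaps equal a junction. Its CPM was 2.07, 2.68, 2.42 and 1.37 in sham 1 to 4 and 0.126, 0.218, 0.0556 and 0.262 in SNT 1 to 4. Each SNT library held 1 to 4 counts, and the groups stood well apart. The log2FC was -3.65 ± 0.40 (SE, edgeR adjusted p = 0.00641), and it was called without any one of the 8 libraries.

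LncRNA2454 (chromosome 3, 102175705 to 102203479, minus strand) joins 2 short exons across a gap of 27289 bases. Its CPM was 17.7, 18.1, 12.4 and 7.04 in sham 1 to 4, and 4.55, 0.0545, 0 and 0.0655 in SNT 1 to 4. SNT 1 was the exception among the injured libraries, with 72 counts where SNT 2, 3 and 4 had 1, 0 and 1. The log2FC was -3.59 ± 1.03 (SE, edgeR adjusted p = 0.0301). The call was lost when any one of sham 1 to 3 or SNT 2 to 4 was left out (highest adjusted p = 0.0711) and with DESeq2 (adjusted p = 0.0863). It was kept without SNT 1 (adjusted p = 0.000148), where the SNT group holds 2 counts in all and no size is given. A count of 0 in SNT 3 allows up to 0.174 CPM there, from counting error alone.

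LncRNA4365 (chromosome 7, 58980560 to 58992266, plus strand, 3 exons) and LncRNA1169 (chromosome 2, 58935601 to 58974068, plus strand, 2 exons) had the same shape. LncRNA4365 had 6.05, 4.76, 4.63 and 2.35 CPM in sham 1 to 4 and 1.45, 0.0545, 0 and 0 in SNT 1 to 4. LncRNA1169 had 4.73, 2.74, 1.99 and 1.24 CPM in sham 1 to 4 and 0.948, 0, 0.0556 and 0 in SNT 1 to 4. In both, SNT 1 kept counts that the other SNT libraries nearly lacked, and sham 4 was the lowest sham library. The log2FC values were -3.58 ± 0.87 (adjusted p = 0.0178 by edgeR) and -3.42 ± 0.87 (adjusted p = 0.0201). With DESeq2 neither was called (adjusted p = 0.0687 and 0.0585). LncRNA4365 lost its call without SNT 2 (adjusted p = 0.0521), and LncRNA1169 lost it without sham 1, SNT 2, SNT 3 or SNT 4 (highest adjusted p = 0.0570). Without SNT 1, where SNT 2 to 4 hold 1 count in all for each, both were called and no size is given.

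LncRNA4453 (chromosome 7, 109471111 to 109485209, plus strand, 2 exons) had 3.56, 2.50, 2.35 and 1.04 CPM in sham 1 to 4 and 0.443, 0.109, 0.111 and 0.197 in SNT 1 to 4. The groups were apart in every library, and its log2FC of -3.44 ± 0.51 (SE, edgeR adjusted p = 0.0104) was called without any one library. It was -4.27 without SNT 1 and sham 4.

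**Figure D4:**
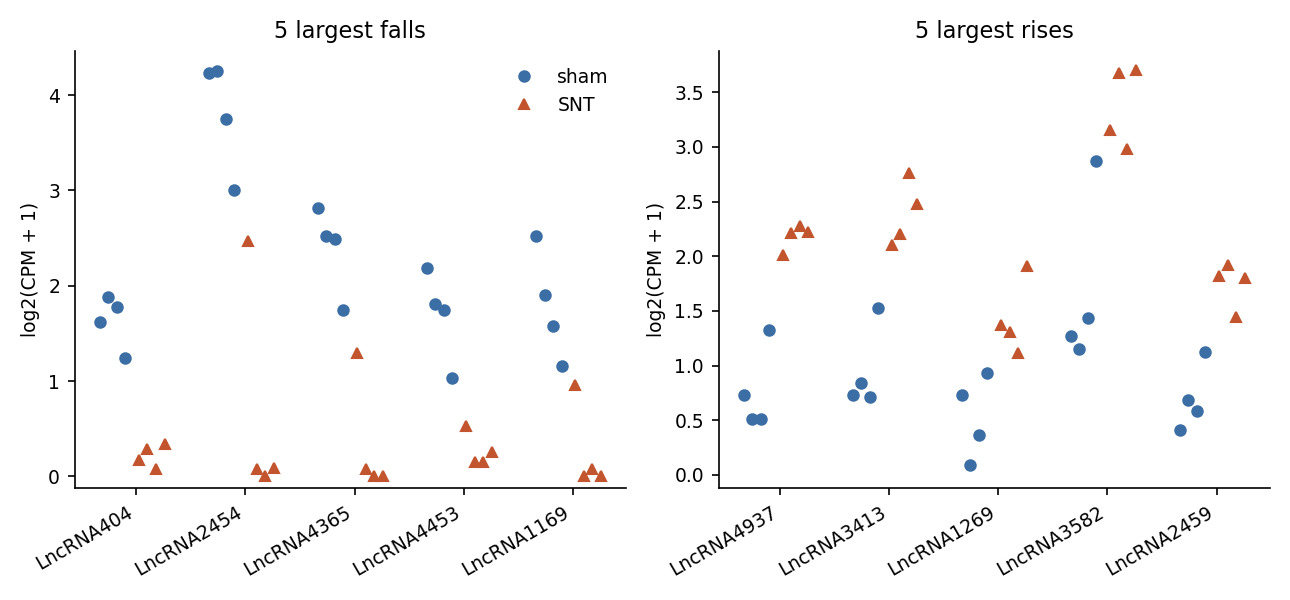
Level of the 5 junction-supported LncRNAs with the largest falls (left) and the 5 with the largest rises (right) after SNT, as log2(CPM + 1) on the y axis. Blue circles are the 4 sham and orange triangles the 4 SNT libraries, in order of library number from left to right. SNT 1 lies above the other SNT libraries for LncRNA2454, LncRNA4365 and LncRNA1169, and sham 4 is the highest sham library for all 5 LncRNAs on the right.

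The largest rises were smaller. LncRNA4937 (chromosome 8, 104776662 to 104806722, plus strand) has 904 exonic bases in 2 exons, joined across a gap of 29157 bases. Its CPM was 0.663, 0.427, 0.427 and 1.498 in sham 1 to 4 and 3.03, 3.65, 3.84 and 3.67 in SNT 1 to 4. SNT libraries lay close together and sham 4 was the highest sham library. The log2FC was 2.22 ± 0.36 (SE, edgeR adjusted p = 0.0106).

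On the plus strand of chromosome 5 (136809756 to 136836333), the 2-exon LncRNA3413 had 0.663, 0.793, 0.641 and 1.89 CPM in sham 1 to 4 and 3.29, 3.59, 5.78 and 4.59 CPM in SNT 1 to 4. Its log2FC was 2.09 ± 0.36 (adjusted p = 0.0107, edgeR). LncRNA2459 (chromosome 3, 103751597 to 103752848, minus strand, 2 exons) had 0.332 to 1.17 CPM in sham and 1.72 to 2.78 CPM in SNT, with a log2FC of 1.82 ± 0.34 (adjusted p = 0.0114). As with LncRNA4937, both were called without any one of the 8 libraries.

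LncRNA3582 (chromosome 5, 58361017 to 58379332, minus strand, 2 exons) had 1.41, 1.22, 1.71 and 6.32 CPM in sham 1 to 4 and 7.90, 11.8, 6.89 and 11.99 CPM in SNT 1 to 4. Sham 4 was nearer to the SNT libraries than to the other sham libraries, and the log2FC of 1.84 ± 0.49 (SE, edgeR adjusted p = 0.0231) became 2.75 without it. LncRNA1269 (chromosome 2, 112717835 to 112719648, plus strand) is short, with 284 exonic bases, and had 1 to 14 counts in sham and 21 to 42 in SNT. Its log2FC was 1.86 ± 0.54 (adjusted p = 0.0309, edgeR). Both lost their call without sham 1, sham 2, sham 3, SNT 2 or SNT 4, with adjusted p of up to 0.0710 and 0.0903.

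The LncRNA with the highest level was LncRNA4785, near the start of chromosome 8 (181059 to 182332, plus strand). It has 3 exons and 1102 exonic bases, its matched gap is 36 bases long, and 389 of its exonic bases overlap a single-exon assembled LncRNA on the opposite strand. Its CPM was 1528, 1449, 1385 and 765 in sham 1 to 4 and 1259, 936, 987 and 979 in SNT 1 to 4. The groups overlapped, and its log2FC was -0.30 ± 0.21 (SE, edgeR adjusted p = 0.305), although it was called lower without sham 4 (adjusted p = 0.0319) and without both sham 4 and SNT 1 (log2FC -0.58, adjusted p = 0.00650). Per kilobase of exon it stood at 1053 CPM per kb, far above the next, LncRNA5033, at 64.4 CPM per kb.

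LncRNA5033 (chromosome 8, 23496772 to 23498448, minus strand) has 669 exonic bases in 2 exons around a gap of 1008 bases. It was at 74.8, 68.2, 69.2 and 55.1 CPM in sham 1 to 4 and at 32.2, 13.01, 13.7 and 18.2 CPM in SNT 1 to 4. No SNT library reached the lowest sham library, and the log2FC of -1.79 ± 0.27 (SE, edgeR adjusted p = 0.0104) was called without any one library. LncRNA1956 (chromosome 2, 254507399 to 254507733, minus strand), the next at 40.3 CPM per kb, is only 335 bases from end to end and had 6.55 to 10.8 CPM in sham and 7.95 to 9.80 CPM in SNT, with a log2FC of 0.18 ± 0.19 (adjusted p = 0.480).

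The other 4 of the 5 highest by CPM were long, and all 4 fell. LncRNA5961 and LncRNA5962 lie 2093 bases apart on the minus strand of chromosome X (76279276 to 76300759 and 76302853 to 76341047). LncRNA5961 had 432, 336, 357 and 281 CPM in sham 1 to 4 and 190, 156, 185 and 187 CPM in SNT 1 to 4, a log2FC of -0.97 ± 0.14 (SE, edgeR adjusted p = 0.0104). LncRNA5962 had 231.98 to 297 CPM in sham and 127 to 196 CPM in SNT, a log2FC of -0.65 ± 0.15 (adjusted p = 0.0163). LncRNA1459 on chromosome 2 (221660514 to 221758283, plus strand, 5 exons, 3 of 4 gaps matched) had 203 to 364 CPM in sham and 86.8 to 165 CPM in SNT, a log2FC of -1.34 ± 0.23 (adjusted p = 0.0107). LncRNA5107 on chromosome 8 (70169463 to 70191926, minus strand) had 187 to 273 CPM in sham and 110 to 154 CPM in SNT, a log2FC of -0.89 ± 0.15 (adjusted p = 0.0107). In all 4 the groups did not overlap, and each was called without any one library.

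At least 4 gaps were matched in 10 LncRNAs, all of them tested, and 3 were called, all higher (LncRNA264, LncRNA4485 and LncRNA5344). That is 30%, near the 27.4% called over all features, of which 12.3% were higher. With so few LncRNAs the direction was not tested. Those with 5 or 6 matched gaps and the 3 of highest mean CPM among the 8 with 4 are described. LncRNA4860 (chromosome 8, 55690322 to 55699118, plus strand) had more matched gaps than any other, with 7 exons and 6 gaps of 195 to 2453 bases, all of them listed junctions. It had 3.56, 2.99, 3.56 and 2.87 CPM in sham 1 to 4 and 3.92, 3.48, 4.28 and 4.19 CPM in SNT 1 to 4. Its values overlapped between the groups, with a log2FC of 0.29 ± 0.17 (SE, edgeR adjusted p = 0.217). LncRNA1856 (chromosome 2, 196083913 to 196206420, minus strand) has 32 exons and 5 of its 31 gaps matched, and had 18.8 to 22.9 CPM in sham and 19.1 to 24.2 CPM in SNT (log2FC 0.11 ± 0.12, adjusted p = 0.507).

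Of the 3 described with 4 matched gaps, LncRNA4485 (chromosome 7, 126530780 to 126586033, plus strand) was called and the others were not. It rose from 28 to 34.8 CPM in sham to 35.7 to 54.9 CPM in SNT, with a log2FC of 0.53 ± 0.14 (SE, edgeR adjusted p = 0.0235). The lowest SNT library, SNT 1, was just above the highest sham library, sham 4, and the call was lost when any one of the other 6 libraries was left out (highest adjusted p = 0.0689). LncRNA560 and LncRNA862, both on chromosome 1, had log2FC values of 0.50 ± 0.24 (adjusted p = 0.138) and 0.50 ± 0.40 (adjusted p = 0.367). LncRNA560 was called higher without sham 4 (adjusted p = 0.0267).

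Junction-supported LncRNAs that lay close together on a strand mostly had log2FC values of the same sign. Of 73 pairs of consecutive ones within 10000 bases, 43 had both tested, and 39 (90.7%) had log2FC values of the same sign. Between 10000 and 100000 bases apart it was 52 of 62 (83.9%), and beyond that 188 of 373 (50.4%). In 13 of the close pairs both were called, and in all 13 both fell. Between 10000 and 100000 bases both were called in 14, and again all fell. Beyond that both were called in 23, of which 13 fell together, 3 rose together and 7 went opposite ways. Of all 218 called LncRNAs, 172 fell, so pairs of falls are the most common kind to look for at any distance. These are counts over pairs that can share a LncRNA and all share the same 8 libraries, so they are given with no test. Separate LncRNAs and parts of 1 longer transcript cannot be told apart from positions and counts.

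Another 4, neighbours of the LncRNAs above, were chosen after their values were seen. LncRNA1170 starts 12 bases after LncRNA1169 ends, and had 0.977 to 2.07 CPM in sham, 0.253 CPM in SNT 1 and 0 in SNT 2, 3 and 4. Like its neighbour it was held by SNT 1 alone among the injured libraries (log2FC -4.40 ± 0.72, edgeR adjusted p = 0.0106). Without SNT 1 the SNT group is at 0 counts, and no size is given for that fit. LncRNA4454, 8169 bases after LncRNA4453, had 1.24 to 2.35 CPM in sham and 0 to 0.316 CPM in SNT (log2FC -3.93 ± 0.56, adjusted p = 0.0104). LncRNA5960, 2706 bases from LncRNA5961, had 43.2 to 76.3 CPM in sham and 29.9 to 40.3 CPM in SNT (log2FC -0.74 ± 0.17, adjusted p = 0.0159), so 3 LncRNAs in a row on chromosome X fell, although LncRNA5960 lost its call without SNT 2 (adjusted p = 0.0524). LncRNA1458, 5688 bases before LncRNA1459, had 3.84 to 5.001 CPM in sham and 1.39 to 2.53 CPM in SNT (log2FC -1.20 ± 0.23, adjusted p = 0.0117).

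The study lists rat LncRNAs that lie antisense to pain genes or voltage-gated ion channels, or whose closest gene is a pain gene. Junction-supported LncRNAs were 11 of the 19 listed as antisense of a pain gene, 7 of the 10 antisense of a voltage-gated ion channel, and 16 of the 56 listed as intergenic. With 1 listed in both antisense lists, these were 33 LncRNAs paired with 26 genes. Gene positions in rat were not checked here, and the pairing is the study's. Of the 33, 24 were tested, 2 were called higher and 6 lower, and of the 26 genes, 24 were tested, 6 were called higher and 4 lower. Over all features, 27.4% were called, 12.3% higher and 15.1% lower. Both were tested in 22 pairs, in which the log2FC values had the same sign 17 times and both were called 3 times. The study has a further rat list of antisense pairs chosen because LncRNA and gene changed in opposite directions. That list was not used, and its pairs are not in these counts.

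**Figure D5:**
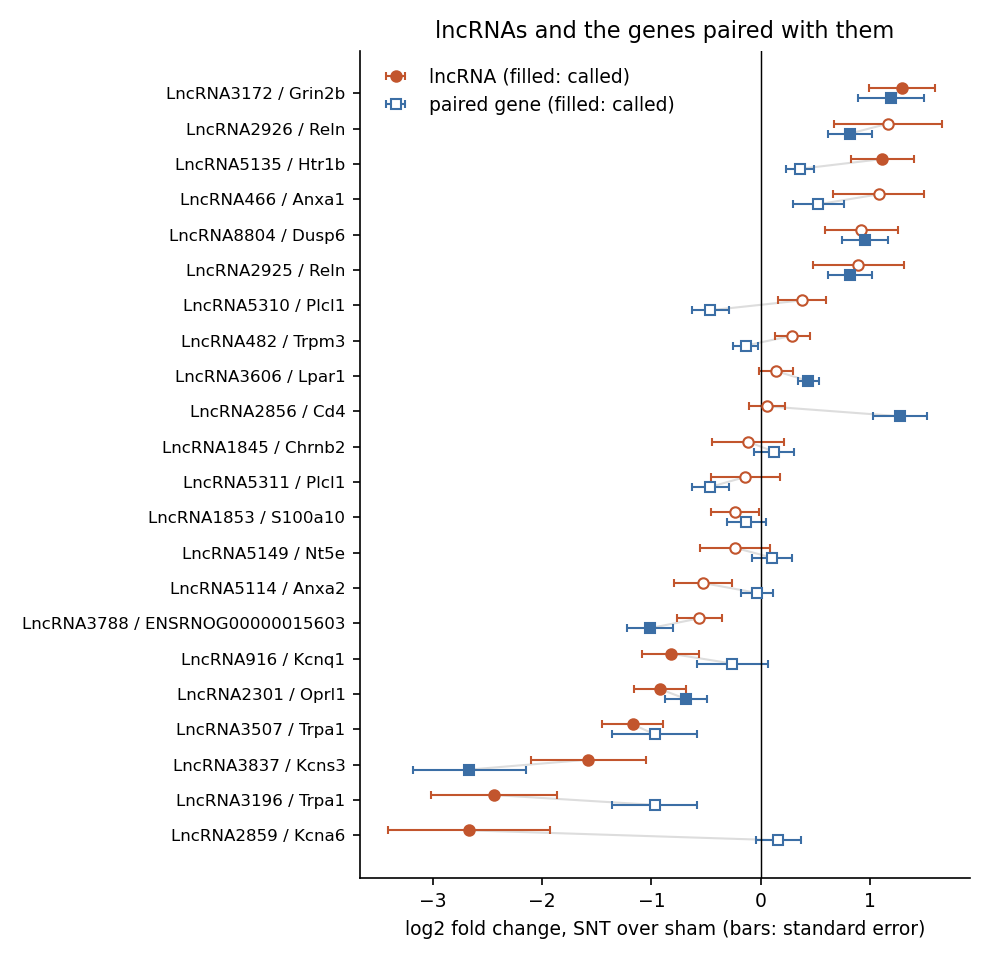
Log2 fold change of SNT over sham (x axis) for the 22 pairs of a junction-supported LncRNA (orange circles) and the gene the study pairs it with (blue squares) in which both were tested, ordered by the LncRNA. Bars are standard errors, filled symbols passed the test and open ones did not, and genes paired with more than 1 LncRNA appear more than once. LncRNA2859 lies far to the left of its gene Kcna6.

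Among those antisense to potassium channel genes, LncRNA2859 parted from its gene. It is listed antisense of Kcna6, which encodes a voltage-gated potassium channel subunit, and is a 3-exon model on chromosome 4 (159263373 to 159286693, plus strand) with both gaps matched. It had 11.5, 17.0, 8.69 and 5.54 CPM in sham 1 to 4 and 5.25, 0.436, 0.389 and 0.721 CPM in SNT 1 to 4. SNT 1 was again close to sham 4, and SNT 2 to 4 were far below. The log2FC was -2.67 ± 0.74 (SE, edgeR adjusted p = 0.0272), -4.59 without SNT 1 and sham 4, and was lost as a call without any one of sham 1 to 3 or SNT 2 to 4 (highest adjusted p = 0.0722). Kcna6 itself had 86.3 to 160 CPM in sham and 97.7 to 168 CPM in SNT, a log2FC of 0.16 ± 0.21 (adjusted p = 0.581).

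LncRNA3837 is listed antisense of Kcns3, a modulatory potassium channel subunit, and sits on chromosome 6 (36819126 to 36821854, plus strand). It had 4.64, 5.92, 3.70 and 3.13 CPM in sham 1 to 4 and 3.35, 0.436, 0.611 and 1.51 CPM in SNT 1 to 4. SNT 1 lay within the sham range. Its log2FC was -1.58 ± 0.53 (SE, edgeR adjusted p = 0.0495), and the gene fell too, by 2.67 ± 0.52 on the log2 scale (adjusted p = 0.0117). Kcns3 was at 144 to 254 CPM in sham, 79.0 CPM in SNT 1 and 13.1 to 24.2 CPM in SNT 2 to 4. The call of LncRNA3837 was lost without any one of sham 1 to 3 or SNT 2 to 4 (highest adjusted p = 0.121), and without SNT 1 and sham 4 the fold change was -2.51.

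LncRNA916, listed antisense of the potassium channel gene Kcnq1, had 2.28 to 3.599 CPM in sham and 1.03 to 2.16 CPM in SNT (log2FC -0.82 ± 0.26, edgeR adjusted p = 0.0411), and lost its call without any one of sham 1 to 3 or SNT 2 to 4 (highest adjusted p = 0.111). Kcnq1 was at a mean of only 1.17 CPM (log2FC -0.26 ± 0.33, adjusted p = 0.572). LncRNA1883, antisense of Kcna10, was at a mean of 12.6 CPM while the gene was at 0.239 CPM and was not tested. LncRNA1883 was not called (log2FC 0.48 ± 0.22, adjusted p = 0.120), except without SNT 1 (adjusted p = 0.0266). LncRNA2066, antisense of the sodium channel gene Scn1a, was too low to test at a mean of 0.556 CPM, whereas Scn1a fell by 2.02 ± 0.38 on the log2 scale (adjusted p = 0.0114).

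The irritant-sensing channel gene Trpa1 is paired with 3 junction-supported LncRNAs. LncRNA3507 (chromosome 5, 3737558 to 3783928, minus strand), listed as antisense, has 33 exons but 1 matched gap. It had 10.9, 11.8, 12.6 and 7.43 CPM in sham 1 to 4 and 7.52, 3.54, 3.34 and 4.59 CPM in SNT 1 to 4. SNT 1 was again level with sham 4, and the log2FC was -1.17 ± 0.28 (SE, edgeR adjusted p = 0.0168). The call was lost without sham 3 or without SNT 2 (highest adjusted p = 0.0534).

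LncRNA3196 lies inside the span of LncRNA3507 on the opposite strand (chromosome 5, 3754456 to 3761754), where 117 of its 686 exonic bases overlap exons of LncRNA3507. Both of its gaps are matched. It had 7.30, 7.81, 7.05 and 4.89 CPM in sham 1 to 4 and 3.35, 0.381, 0.389 and 0.918 CPM in SNT 1 to 4, a log2FC of -2.44 ± 0.58 (SE, edgeR adjusted p = 0.0164) that was called without any one library and was -3.73 without SNT 1 and sham 4. LncRNA3197, at 0.246 CPM, was too low to test. Trpa1 was at 91.5 to 153 CPM in sham, at 130 CPM in SNT 1 and at 35.1 to 63.7 CPM in SNT 2 to 4. Its log2FC of -0.97 ± 0.39 missed the threshold (adjusted p = 0.0848) but passed it without SNT 1 (lowest adjusted p = 0.00224).

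In 2 intergenic pairs the LncRNA and its gene were both called. LncRNA2301 (chromosome 3, 177232664 to 177239901, plus strand) is paired with Oprl1, the nociceptin receptor gene. It was at 90.8, 148, 121 and 79.3 CPM in sham 1 to 4 and at 77.6, 42.9, 46.7 and 64.4 CPM in SNT 1 to 4, so that SNT 1 lay just under sham 4. The LncRNA fell by 0.92 ± 0.23 (SE, edgeR adjusted p = 0.0203) and Oprl1 fell by 0.69 ± 0.19 (adjusted p = 0.0284) on the log2 scale. Both lost their call without sham 2, sham 3, SNT 2 or SNT 3 (highest adjusted p = 0.0593 and 0.0844).

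LncRNA3172 (chromosome 4, 169541564 to 169552161, minus strand) is paired with Grin2b, an NMDA receptor subunit gene. It had 1.41, 1.04, 1.57 and 2.54 CPM in sham 1 to 4 and 2.66, 4.96, 3.89 and 4.65 CPM in SNT 1 to 4. Sham 4 and SNT 1 were nearly equal, and the other libraries were further apart. The log2FC was 1.30 ± 0.30 (SE, edgeR adjusted p = 0.0159) and that of Grin2b was 1.19 ± 0.30 (adjusted p = 0.0196). LncRNA3172 lost its call without sham 3 (adjusted p = 0.0504), and Grin2b without sham 3 or SNT 2 (highest adjusted p = 0.0614).

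LncRNA5135 (chromosome 8, 89144412 to 89149303, minus strand), whose closest gene is listed as the serotonin receptor gene Htr1b, also rose. It had 0.746, 0.915, 1.35 and 1.24 CPM in sham 1 to 4 and 2.97, 2.67, 1.501 and 2.16 CPM in SNT 1 to 4, a log2FC of 1.12 ± 0.29 (SE, edgeR adjusted p = 0.0211). SNT 1 was here the highest of all. The call was lost without sham 1, sham 2 or SNT 2 (highest adjusted p = 0.0602). Htr1b had a log2FC of 0.36 ± 0.13 (adjusted p = 0.0650), and passed without sham 2 (adjusted p = 0.0449).

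In other pairs the gene was called and the LncRNA was not. Reln, which encodes a secreted matrix glycoprotein, rose by 0.82 ± 0.20 (SE, edgeR adjusted p = 0.0189), while its antisense LncRNA2925 and LncRNA2926 had 0.90 ± 0.42 (adjusted p = 0.128) and 1.17 ± 0.49 (adjusted p = 0.101). Dusp6, an ERK phosphatase gene, rose by 0.95 ± 0.21 (adjusted p = 0.0137), and LncRNA8804 had 0.92 ± 0.33 (adjusted p = 0.0643). The T cell and macrophage surface gene Cd4 rose by 1.27 ± 0.25 (adjusted p = 0.0118), whereas LncRNA2856 had 0.06 ± 0.16 (adjusted p = 0.803) at a mean of 6.41 CPM. Lpar1, a lysophosphatidic acid receptor gene, rose by 0.44 ± 0.10 (adjusted p = 0.0146), and LncRNA3606 had 0.14 ± 0.15 (adjusted p = 0.525). The gene ENSRNOG00000015603, which has no symbol in the deposited table, fell by 1.01 ± 0.21 (adjusted p = 0.0131), and its LncRNA3788 had -0.56 ± 0.21 (adjusted p = 0.0671).

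Some of these values too turned on single libraries. Reln lost its call without sham 3, SNT 2 or SNT 3 (highest adjusted p = 0.0546) and Lpar1 without sham 3 (adjusted p = 0.0507). LncRNA2925 passed without SNT 1 (adjusted p = 0.0465), LncRNA2926 without sham 4 or SNT 1 (lowest adjusted p = 0.0254) and LncRNA8804 without sham 4 (adjusted p = 0.00632).

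Neither LncRNA nor gene was called in the remaining pairs with both tested. Their LncRNA log2FC values were 1.08 ± 0.42 for LncRNA466 (Anxa1), -0.23 ± 0.22 for LncRNA1853 (S100a10), -0.53 ± 0.27 for LncRNA5114 (Anxa2), -0.24 ± 0.32 for LncRNA5149 (Nt5e) and 0.29 ± 0.16 for LncRNA482 (Trpm3). For LncRNA1845 (Chrnb2), LncRNA5310 and LncRNA5311 (both Plcl1) they were -0.12 ± 0.33, 0.38 ± 0.22 and -0.14 ± 0.32. LncRNA466 and Anxa1 both passed without sham 4. LncRNA3129 (Cacna2d4) was tested (0.77 ± 0.41, edgeR adjusted p = 0.177) and its gene was not, and it passed without sham 4 (adjusted p = 0.0401). LncRNA712 (Prx), LncRNA1595 (Il6st), LncRNA4642 (Dusp6), LncRNA3096 (Slc6a6), LncRNA3390 and LncRNA3391 (both Dab1) and LncRNA5136 (Htr1b) were not tested, at means of 0.101 to 0.575 CPM. Of their genes not yet given, Il6st, which encodes the shared IL-6 family receptor subunit, rose by 0.37 ± 0.12 (adjusted p = 0.0392) and lost its call without any of sham 1 to 3 or SNT 2 to 4 (highest adjusted p = 0.108).

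Listed markers of several cell types were read in the same libraries. Of 12 listed neuronal markers, 11 were in the table, 4 of these were at 0, and 3 of the 7 tested were called lower and none higher. Their summed level was 6503 to 9050 CPM in sham and 4021 to 7745 CPM in SNT. Of 12 injured-neuron markers, 11 were listed, Atf3 and Gap43 were at 0, and 7 of 8 tested were higher. Their sum was 611 to 1521 CPM in sham and 2010 to 3060 CPM in SNT. Of 5 Schwann cell markers, Mbp, S100b and Pmp22 were at 0 and 1 of the other 2, Sox10, was higher (their sum was 1120 to 1565 CPM in sham and 1331 to 2679 CPM in SNT). Macrophage markers had 5 of 7 at 0 and none of the 2 tested called (308 to 1403 CPM in sham, 1236 to 1803 CPM in SNT).

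T cell markers had 2 of 3 called higher, Cd3e and Cd4 (sum 32.9 to 76.3 CPM in sham, 96.6 to 146 CPM in SNT). Almost all of that sum was Cd4 (32.3 to 74.1 CPM in sham, 94.5 to 141 CPM in SNT), a gene of T cells and macrophages, so it is no measure of T cells alone. Cd3e was at 0.142 to 2.06 CPM and Cd3g, not called, at 0.183 to 2.17 CPM over the 8 libraries. For satellite glia only Apoe was measurable, with Fabp7, Kcnj10 and Glul at 0, and it was not called (7665 to 11771 CPM in sham, 5941 to 8103 CPM in SNT). Both listed endothelial markers, Cdh5 and Kdr, were at 0. Of the muscle markers, Acta1 was at 0 and Ckm was 7.23 to 52.4 CPM in sham and 6.37 to 80.1 CPM in SNT. The part of these cell types in the changes of the LncRNAs was not tested.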

How the data were processed

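Junction-supported LncRNAs, their change after SNT and the genes paired with them were studied in 4 sham and 4 SNT libraries of rat L5 DRG. The authors prepared stranded (dUTP) libraries of polyadenylated RNA for paired-end sequencing, mapped the reads to rn6 with STAR and counted read pairs with HTSeq over Ensembl genes and their assembled LncRNAs. Versions of STAR and HTSeq are not given in the sources used here. LncRNAs were assembled by the authors from reads outside gene models extended by 1000 bases, with introns taken from splice junctions and from coverage drops. They were kept when present in all replicates of a condition, at least 200 bases long and without coding potential. For their own analysis the authors kept only those that also passed a threshold on average expression. That threshold was not applied here, so LncRNAs below it are among those described. The deposited table holds raw counts per feature, and every column was used. The authors' own table of fold changes and p-values from DESeq2 was used for gene symbols only. The authors' table of exon and junction positions gave the LncRNA models. Mouse files were not used.

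Features were tested with edgeR 4.0.16 in R 4.3.3 (TMM, filterByExpr, quasi-likelihood F test, surgery alone, two-sided), with Benjamini-Hochberg adjustment over all 13690 features tested. Standard errors were taken as the size of the log2 fold change over the root of F. CPM is the count divided by library total and TMM factor (0.931 to 1.04). A count of 3, or 0.168 to 0.251 CPM, was taken as the most that a count of 0 allows, and covers counting error only. The model was tested on simulated data. LncRNAs and genes named are those with the 5 largest rises and falls (called, mean of at least 1 CPM, no overlap between groups), the 5 highest by CPM, the 3 highest per kilobase, the 5 with the most matched gaps (ties by mean CPM), and those in the study's position lists. The members and lists were chosen with earlier results of these data known. Alternatives were other normalizations, filters, DESeq2 1.42.0, left-out libraries, a block and other matching rules. Libraries are numbered 1 to 4 within a group. No 2 libraries were identical. No rat genome was used. A small number of listed items are not reported here.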

Additional observations from a re-analysis of the deposited data

Results flagged for a closer look

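In each group of 4 libraries, the highest and lowest library were compared with the other 3 by Dixon's ratio for the values of the named LncRNAs and genes and for the share and median level of the junction-supported LncRNAs. A library stood out in 15 of 174 such groups, and chance alone gives about 1 in 20. SNT 1 stood out in 7 groups, sham 4 in 4, sham 1 in 2 and SNT 2 in 2.

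In SNT 1, LncRNA2454 was at 4.55 CPM where the other SNT libraries had 0 to 0.0655, LncRNA4365 at 1.45 (0 to 0.0545), LncRNA1169 at 0.948 (0 to 0.0556), LncRNA1170 at 0.253 (0 in all others) and LncRNA2859 at 5.25 (0.389 to 0.721). LncRNA4785 was at 1259 CPM in SNT 1 (936 to 987 in the others) and Kcns3 at 79.0 CPM (13.1 to 24.2). All 7 values lay on the side of the sham libraries.

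In sham 4, LncRNA3413 was at 1.89 CPM where the other sham libraries had 0.641 to 0.793, LncRNA3582 at 6.32 (1.22 to 1.71), LncRNA712 at 0.586 (0.166 to 0.214) and Slc6a6 at 42.0 (19.4 to 21.1). LncRNA5961 was at 156 CPM in SNT 2 (185 to 190 in the other SNT libraries) and LncRNA3096 at 0.653 CPM in SNT 2 (0.190 to 0.262). In sham 1, Il6st was at 392 CPM (448 to 459 in the other sham libraries) and S100a10 at 1232 CPM (862 to 903).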

How the results depend on the processing

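The count of LncRNAs called (218) was 117 to 309 with 1 library left out, that of rises (46) was 18 to 98 and that of falls (172) was 97 to 211. With both libraries between the groups left out, a pair picked from these same data, 345 were called, 123 of them higher. With at least 10 counts in every library, 138 were called, 106 of them lower, over fewer features tested, and DESeq2 called 73 higher. DESeq2 also called LncRNA8804, Trpa1, Prx and Slc6a6, LncRNA916 was lost with no filter (adjusted p = 0.0600), and Htr1b was called with totals from annotated genes (0.0383). Each sham library shares a number in its title with 1 SNT library, and the labels do not say what this number marks. The deviations of such libraries correlated by -0.293 to 0.050. With so few libraries this cannot decide whether those with the same number belong together. With the title number as a replicate block, 187 were called, 36 higher and 151 lower. Among named features the block ended the calls of LncRNA916 (adjusted p = 0.108), LncRNA3837 (0.0641), LncRNA4485 (0.0591), LncRNA2301 (0.0703), LncRNA5135 (0.0710), Il6st (0.0702), Reln (0.0527) and Oprl1 (0.0922), added that of LncRNA2926 (0.0405) and changed no other call. Requiring at least 2 matched gaps left 219 LncRNAs, of which 58 were called, 15 higher and 43 lower, while the other 3 matching rules left 1055 to 1218. Over LncRNAs with at least 1 count in all 8 libraries, the median levels were 1.44 CPM for junction-supported, 1.16 for unmatched multi-exon and 0.848 for single-exon LncRNAs. Over all LncRNAs of a class, the medians per kilobase of exon were 0.438 for unmatched multi-exon and 1.0 for single-exon LncRNAs. As a mean share of assembled LncRNA counts, junction-supported LncRNAs took 18.3% in sham and 15.5% in SNT. Without LncRNA4785, left out after seeing the data, their mean share of all counts was 0.645% and 0.523%.

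Of 1090 refitted fold changes of 74 named LncRNAs and genes, 961 kept their direction and side of the threshold, 84 lost the call, 36 gained it and 9 turned in direction, none of the last called. With both libraries between the groups left out, LncRNA5149 stood at 0.093. The others turned when 1 library was left out, with ranges of -0.0068 to 0.16 for LncRNA2856 (turned without SNT 2), -0.33 to 0.10 for LncRNA1845 (SNT 3), -0.31 to 0.098 for LncRNA5311 (sham 1 or SNT 2, 0.053), -0.27 to 0.026 for S100a10 (sham 1), -0.090 to 0.045 for Anxa2 (SNT 2, 0.038, or SNT 3) and -0.10 to 0.019 for Dab1 (SNT 3). The cause was not tested. LncRNAs under about 1 CPM rest on few counts, and 424 were not tested.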
